A study of Mus musculus with 17 samples.

Results

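The genes described here are 10 members of the BCL-2 family, the proteins that decide whether mitochondria release the factors that start cell death. They were chosen by symbol, as Bcl2, Bcl2l1, Mcl1, Bcl2l11, Bax, Bak1, Bid, Bad, Pmaip1 and Bbc3, out of 24594 genes listed per library. All 10 passed the filter on low counts, which left 13881 genes for testing. RNA was sequenced in 17 libraries of mouse spleen cells that the labels call CD8 T cells, with the genotype CD8+Thy1.1+ in every group. Thy1.1 is a congenic surface marker by which transferred or edited cells can be told from a host's own. The genetic modification was Rosa KO, taken as the control, in 5 libraries, and Tet2 KO, Asxl1 KO or Dnmt3a KO in 4 libraries each. Tet2 starts the removal of DNA methylation by oxidising it, Dnmt3a places it, and Asxl1 is a partner of the chromatin deubiquitinase BAP1. The series title asks how such clonal hematopoiesis genes act on CD8 T cell stemness during immunotherapy. The sources used here do not give age, strain, treatment, time or the means of editing. They also do not say whether libraries came from separate animals. A p-value here therefore sets a difference only against the variation between these libraries, and that variation may be technical.

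Library numbers in the labels fall into 3 separated runs, which the labels do not call batches. Run 1 held Rosa KO 1, Asxl1 KO 1 and Dnmt3a KO 1 and 2, run 2 held Asxl1 KO 2, Dnmt3a KO 3 and 4 and Tet2 KO 1 and 2, and run 3 held Rosa KO 2 to 5, Asxl1 KO 3 and 4 and Tet2 KO 3 and 4. Total counts lay between 6625833 and 40701203, with a median of 21642477. The targeted genes did not mark their own knockouts at the RNA level: log2 fold changes against Rosa KO were −0.13 for Asxl1, −0.06 for Dnmt3a and −0.26 for Tet2, with adjusted p-values of 0.836, 0.978 and 0.734. The counts of these genes therefore do not check the labels. Cd8a (641 to 1240 CPM, the read count scaled by TMM to a common library size) and Cd3e (1246 to 4966 CPM) were abundant in every library. Cd4 was at 52.8 to 99.5 CPM in Dnmt3a KO and at most 28.1 CPM in Rosa KO, 19.2 CPM in Asxl1 KO and 13.9 CPM in Tet2 KO. It is 1 of 5 CD4 and regulatory T cell markers, of which 0 were called against Rosa KO. The median log2 fold change of these 5 was 0.78 in Asxl1 KO, 0.07 in Dnmt3a KO and −0.31 in Tet2 KO. The part of Cd4 in the Dnmt3a KO differences was not tested. Summed B cell transcripts (16 marker genes, none at 0 in any library) ranged from 190 CPM in Tet2 KO 2 to 3689 CPM in Rosa KO 3. Asxl1 KO 1 stood apart by summed erythroid and platelet transcripts (12 marker genes, 3030 CPM, against at most 753 CPM elsewhere). By the mean log2 CPM of the same genes it did not, at 3.43 against 3.77 in Rosa KO 1 and 3.56 in Dnmt3a KO 2. In bulk RNA, fewer cells of a type and less RNA per cell cannot be told apart.

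BCL-2 proteins act in 3 roles. Survival members such as BCL-2, BCL-XL and MCL-1 hold the effectors BAX and BAK in check, and the BH3-only members (BIM, BID, BAD, NOXA and PUMA) either occupy the survival members or activate the effectors, which then open the outer mitochondrial membrane. In T cells, BIM, encoded by Bcl2l11, is the main trigger of death when antigen and cytokines are withdrawn and of the contraction that follows a response, while BCL-2 is sustained by IL-7 and IL-15 signals and marks long-lived memory cells.

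The promoter sequences of Bcl2l11 and Bcl2 are shown because these were the members that passed the test against Rosa KO; CpG sites are where Dnmt3a adds and Tet2 oxidises methyl groups. RefSeq promoter windows ran from 250 bases before to 50 after a start (GRCm38.p6, the assembly also called mm10). They were examined for 9 of the 10 members, in 15 windows. Pmaip1 was left out, so the counts of sites and motifs below do not cover it. The Bcl2 window held 44 CpG sites, and 98.1% of all 32851 promoter windows held that many or fewer. The 2 Bcl2l11 windows held 27 and 38, against a median of 7 over all windows. Members that did not pass had similar counts, with 33 in the Mcl1 window, 30 to 39 in the 3 Bbc3 windows and 27 in 1 Bad window. The 250 bases before each start follow, 5′ to 3′ on the gene's strand, with each CpG in capitals; none of them overlaps an annotated exon. They held 36 CpG sites for Bcl2 (chr1:106714291-106714540, minus strand) and 24 and 30 for the first (chr2:128125788-128126037, plus strand) and second (chr2:128127325-128127574, plus strand) Bcl2l11 start.
Bcl2: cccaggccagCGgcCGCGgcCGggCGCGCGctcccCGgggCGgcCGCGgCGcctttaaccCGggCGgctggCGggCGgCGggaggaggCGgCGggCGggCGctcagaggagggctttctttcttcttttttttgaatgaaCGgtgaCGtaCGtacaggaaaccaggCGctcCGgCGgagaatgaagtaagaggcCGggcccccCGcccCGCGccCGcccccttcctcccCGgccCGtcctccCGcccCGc
Bcl2l11, first start: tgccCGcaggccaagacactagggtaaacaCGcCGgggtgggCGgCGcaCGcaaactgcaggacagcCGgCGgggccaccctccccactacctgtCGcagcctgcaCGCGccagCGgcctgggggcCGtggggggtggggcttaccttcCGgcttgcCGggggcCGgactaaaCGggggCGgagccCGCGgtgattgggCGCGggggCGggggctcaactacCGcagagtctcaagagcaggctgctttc
Bcl2l11, second start: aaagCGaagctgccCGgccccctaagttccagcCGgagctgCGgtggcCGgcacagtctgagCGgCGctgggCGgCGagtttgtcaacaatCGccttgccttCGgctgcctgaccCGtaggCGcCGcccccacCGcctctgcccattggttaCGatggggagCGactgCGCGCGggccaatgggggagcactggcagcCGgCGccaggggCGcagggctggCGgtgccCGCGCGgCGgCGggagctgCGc
The FOXO motif TGTTTAC, searched on both strands, occurred in the first Bcl2l11 window, where it reads gtaaaca near the 5′ end, and in 1 of 3 Bbc3 windows, and in 3.65% of all windows. The STAT motif TTCNNNGAA, also searched on both strands, occurred in none of the 15 windows and in 8.3% of all. These motifs do not overlap each other and are a description of the letters in these windows. DNA methylation was not measured in these libraries.

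Bcl2l11 was lower than in Rosa KO in all 3 knockouts, and Bcl2 was lower in Tet2 KO. No other member passed the test in any of the 6 comparisons between groups, and none of the 10 rose. Mcl1, the most abundant member per exon length, had log2 fold changes within 0.06 of 0 in each knockout. Without the run term in the model no member passed.

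**Figure D1:**
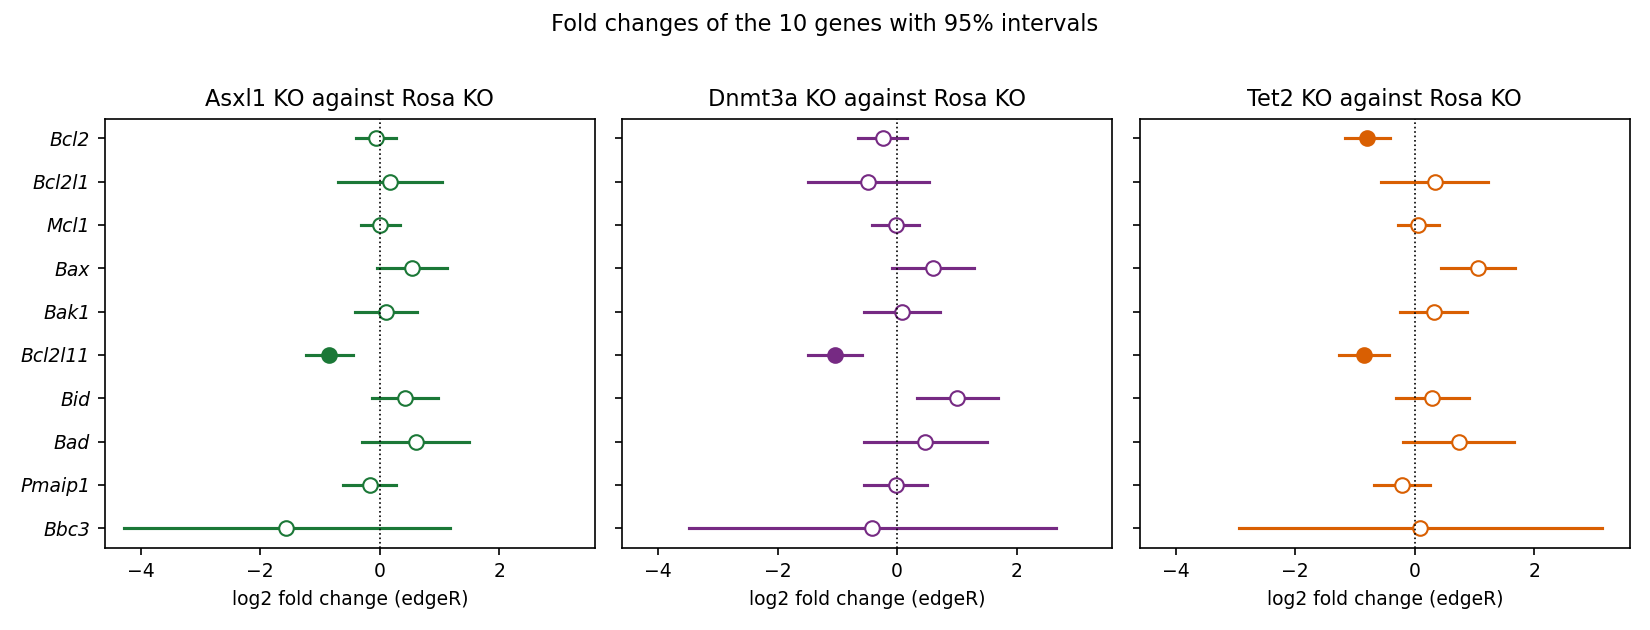
log2 fold change against Rosa KO (x axis) of the 10 genes (y axis) in each knockout, from the edgeR fit with group and run; lines are 95% intervals and filled points have an adjusted p under 0.05. The filled points are Bcl2l11 in all 3 knockouts and Bcl2 in Tet2 KO, all below 0, and the intervals of Bbc3 are the widest.

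In Asxl1 KO against Rosa KO, 1 of the 10 members was called, lower, where 1.64% of the 13881 tested genes were called, 0.814% higher and 0.821% lower. In Dnmt3a KO it was again 1 member, lower, against 0.216% of all genes, 0.036% higher and 0.18% lower. In Tet2 KO 2 members were called, both lower, against 1.47% of all genes, 0.987% higher and 0.483% lower. The median log2 fold change of the members was 0.06 in Asxl1 KO, −0.02 in Dnmt3a KO and 0.20 in Tet2 KO, where the medians of all tested genes were 0.000428, −0.00298 and −0.0199. At an unadjusted p under 0.05 there were 1, 2 and 3 members, against 15.7%, 8.03% and 12.2% of all genes. No member had CPM ranges apart from Rosa KO, where 2.78%, 4.03% and 2.82% of all genes did. These comparisons share the 5 Rosa KO libraries.

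Among the BH3-only genes, Bcl2l11 (NCBI gene 12125, chromosome 2, 128126038 to 128162547, mm10) encodes BIM. Its level was 205, 131.1, 89.5, 133.8 and 111 CPM in Rosa KO 1 to 5. Asxl1 KO 1 to 4 had 112, 92.4, 61.9 and 73.0 CPM. Dnmt3a KO 1 to 4 had 109, 75.8, 87.0 and 94.6 CPM, and Tet2 KO 1 to 4 had 93.7, 109, 51.0 and 78.8 CPM. Rosa KO 1 was the highest of the 17 libraries and Tet2 KO 3 the lowest, and every knockout group overlapped the Rosa KO range through its run 1 or run 2 libraries. Within a run they did not overlap: in run 1 the 3 knockout libraries had 75.8 to 112 CPM against 205 CPM in the single Rosa KO library, and in run 3 the 4 knockout libraries had 51.0 to 78.8 CPM against 89.5 to 133.8 CPM in 4 Rosa KO libraries. Bcl2l11 was the only member with every knockout library below every Rosa KO library in both runs, an order found in 1.78% of tested genes, while 1.86% had the opposite order.

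**Figure D2:**
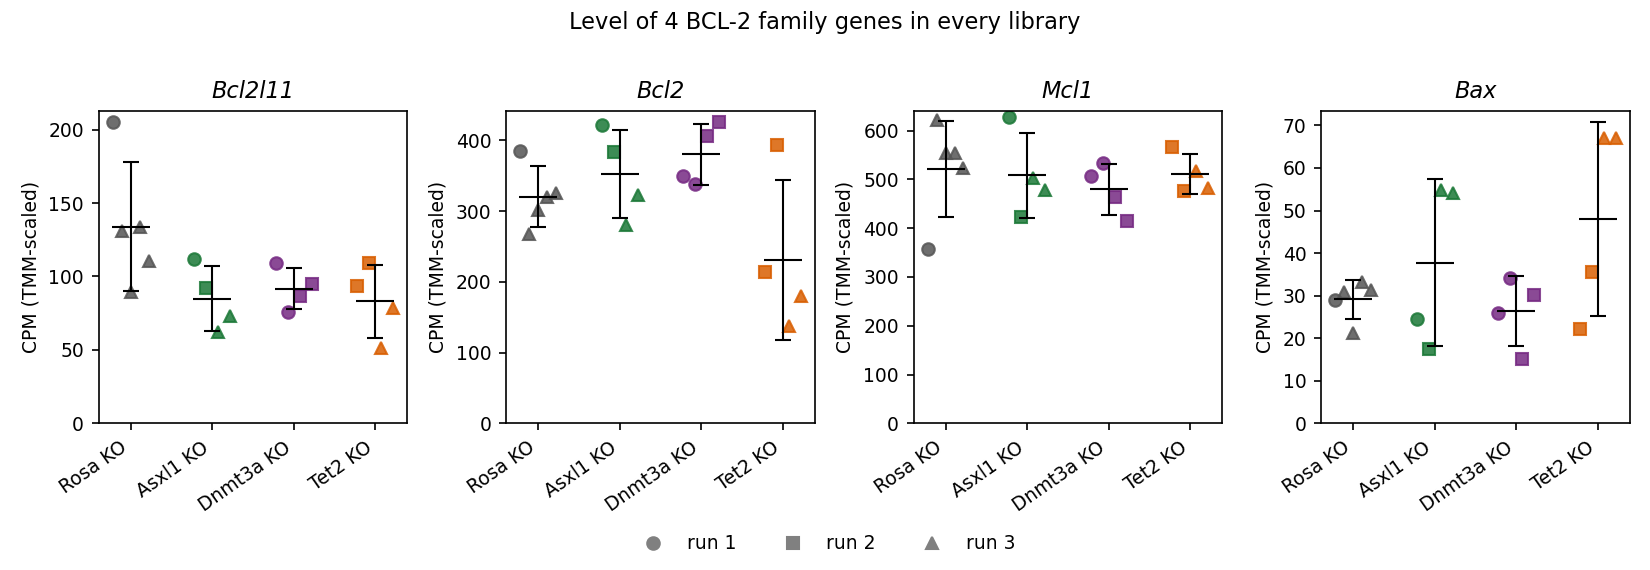
CPM (TMM-scaled, linear axis from 0) of Bcl2l11, Bcl2, Mcl1 and Bax in each of the 17 libraries, by group, with the marker shape giving the run and black bars the group mean ± SD (n = 5 for Rosa KO, 4 for each knockout). Within each run that holds Rosa KO libraries the knockout libraries lie below them for Bcl2l11, 3 of the 4 Tet2 KO libraries are the lowest for Bcl2, Mcl1 knockout libraries lie above Rosa KO in run 1 and below it in run 3, and the run 3 knockout libraries are the highest for Bax.

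In the fit with group and run, Bcl2l11 fell by 0.84 ± 0.19 on the log2 scale in Asxl1 KO (SE, adjusted p = 0.0201), which is 1.80-fold. It fell by 1.04 ± 0.22 in Dnmt3a KO (adjusted p = 0.0429, 2.06-fold) and by 0.85 ± 0.20 in Tet2 KO (adjusted p = 0.0321, 1.80-fold). All 4 libraries of each knockout lay below the Rosa KO mean, and the knockout means were 84.8 ± 22.1, 91.6 ± 13.9 and 83.1 ± 24.7 CPM (SD, n = 4 each). Without the run term the same differences were −0.66, −0.55 and −0.69 with adjusted p-values of 0.378, 0.547 and 0.701. Within run 3 they were −0.80 for Asxl1 KO (adjusted p = 0.077, 2 against 4 libraries) and −0.85 for Tet2 KO (0.0911, 2 against 4). Within run 1 the difference was −1.15 for Dnmt3a KO (0.293, 2 against 1), and −0.87 for Asxl1 KO with 1 library each and no test. The direction was thus the same in each run that holds Rosa KO libraries, and the size was within 1.5 times of the fit over all libraries, but no single run passed the test.

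Single libraries decided several of these calls. For Asxl1 KO, Bcl2l11 passed in 7 of 9 fits that left out 1 library and failed without Rosa KO 1 (adjusted p = 0.0569) or Asxl1 KO 3 (0.111). For Dnmt3a KO it passed in 1 of 9, without Rosa KO 3, and the others had adjusted p-values up to 0.212. For Tet2 KO it passed in 2 of 9, without Tet2 KO 2 or Rosa KO 3, and reached 0.322 without Tet2 KO 3. The fold change itself moved little, between −0.92 and −0.80, between −1.14 and −0.93 and between −1.04 and −0.71 over these fits. With only the libraries of the 2 groups compared, Bcl2l11 passed in no knockout (0.0725, 0.163 and 0.104).

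Markers of other cells were examined beside the Bcl2l11 difference. Of 16 B cell markers 0 were called and 0 had an unadjusted p under 0.05 by edgeR in any knockout against Rosa KO, and their median log2 fold change was −0.97 in Asxl1 KO, 0.35 in Dnmt3a KO and −0.12 in Tet2 KO. They summed to 3351 to 3689 CPM in the 4 Rosa KO libraries of run 3 and to 710 CPM in Rosa KO 1, against 817 to 1597 CPM in Asxl1 KO, 814 to 2850 CPM in Dnmt3a KO and 190 to 3192 CPM in Tet2 KO. Rosa KO 1, which had the highest Bcl2l11 level, had the lowest B cell level of its group. With the mean log2 level of the B cell markers as a covariate, Bcl2l11 was at −0.89 in Asxl1 KO (adjusted p = 0.0193), −0.86 in Tet2 KO (0.0282) and −0.996 in Dnmt3a KO (0.0805), where it no longer passed. Tet2 KO 2 and Asxl1 KO 1, whose summed other-cell transcripts stood apart, were also left out together, a choice made after seeing the data. Without them Bcl2l11 was at −0.86, −1.01 and −0.89 and passed in all 3 (0.0219, 0.0398 and 0.0143).

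Some markers of NK and myeloid cells were called in the same direction as Bcl2l11, and other markers were called higher. Of 12 myeloid markers 1 fell in each knockout, Itgam, which encodes CD11b and is also found on effector T cells. It had 342 to 409 CPM in Rosa KO and 117 to 194 CPM in the 12 knockout libraries, with log2 changes of −1.32, −1.36 and −1.33 in Asxl1 KO, Dnmt3a KO and Tet2 KO (adjusted p = 0.000104, 0.00131 and 0.000415). Of 9 NK cell markers, several of which cytotoxic T cells also express, Klrb1c, which encodes NK1.1, fell in each knockout (−2.62, −3.65 and −2.38, adjusted p = 0.000677, 0.000421 and 0.00588), from 108 to 266 CPM in Rosa KO to 5.59 to 39.5 CPM in the knockouts. Gzma, the cytotoxic protease granzyme A, fell in Asxl1 KO (−1.81) and Dnmt3a KO (−1.19), and Eomes, a transcription factor of NK and memory CD8 T cells, rose in Asxl1 KO (1.15). The NK cell list summed to 3855 to 5147 CPM in Rosa KO, 2037 to 4612 in Asxl1 KO, 1872 to 3232 in Dnmt3a KO and 3645 to 4609 CPM in Tet2 KO, with Ncr1 at 0 in 3 libraries and Klri2 in 1 of them. The myeloid list summed to 1330 to 1902 CPM in Rosa KO, 920 to 1162 in Asxl1 KO, 976 to 1936 in Dnmt3a KO and 324 to 1477 CPM in Tet2 KO, with Cd14 at 0 in 3 libraries. Of 12 CD8 T cell markers 5 rose in Asxl1 KO (Cd3d, Cd3g, Cd2, Zap70 and Lat, by 0.64 to 1.33), 0 in Dnmt3a KO and 1 in Tet2 KO (Cd3d, 0.68). The myeloid list's median log2 fold change was −0.25 in Asxl1 KO, 0.22 in Dnmt3a KO and −0.09 in Tet2 KO. At an unadjusted p under 0.05 by edgeR, 1 myeloid marker rose and 2 fell in Asxl1 KO. In Dnmt3a KO 1 rose and 1 fell, and in Tet2 KO 0 rose and 1 fell. Of 9 dendritic cell markers, Bst2 rose in Asxl1 KO (0.95, adjusted p = 0.0303) and Tet2 KO (1.06, 0.0223). The part of all these markers in the Bcl2l11 difference was not tested.

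Between the knockouts no difference in Bcl2l11 passed the test. The difference was 0.20 on the log2 scale between Asxl1 KO and Dnmt3a KO (95% interval −0.23 to 0.62, adjusted p = 0.775). It was 0.00 between Asxl1 KO and Tet2 KO (−0.40 to 0.40, adjusted p = 1) and −0.20 between Dnmt3a KO and Tet2 KO (−0.63 to 0.24, adjusted p = 0.987). A p that misses the threshold does not show that the levels are alike, and these intervals bound the differences that remain possible.

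Bid (gene 12122, chromosome 6, 120893119 to 120917062) encodes the BH3-only protein that caspase 8 cleaves to link death receptors to mitochondria. It had 16.3, 45.3, 33.2, 33.0 and 23.9 CPM in Rosa KO 1 to 5 and 27.4, 43.0, 45.0 and 36.8 CPM in Dnmt3a KO 1 to 4. Asxl1 KO 1 to 4 had 19.0, 23.9, 49.9 and 55.0 CPM, and Tet2 KO 1 to 4 had 31.1, 30.5, 39.4 and 30.8 CPM. All groups overlapped, and in Asxl1 KO the run 3 libraries were above those of runs 1 and 2. The log2 fold change against Rosa KO was 1.01 ± 0.33 in Dnmt3a KO (SE, unadjusted p = 0.00483 by edgeR, adjusted p = 0.319), 0.42 ± 0.27 in Asxl1 KO (0.474) and 0.30 ± 0.30 in Tet2 KO (0.778). In Dnmt3a KO, Bid passed in none of 20 alternative fits, whose adjusted p-values ran from 0.103 to 0.873. Of the Bid exon bases, 17.7% overlap Bcl2l13 on the other strand, so its counts may include reads of that gene.

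Pmaip1 (gene 58801) encodes NOXA, which targets MCL-1. Rosa KO libraries had 57.1 to 87.8 CPM of it, Asxl1 KO 41.5 to 64.6, Dnmt3a KO 51.4 to 68.1 and Tet2 KO 41.3 to 63.6 CPM. The ranges overlapped in every pair of groups, and its lowest libraries were Asxl1 KO 2 and Tet2 KO 2, both of run 2. Bad (gene 12015, chromosome 19, 6941861 to 6951905), whose protein is held inactive by growth factor signalling through AKT, had 7.83 to 14.1 CPM in Rosa KO and up to 28.9 CPM in Asxl1 KO 4 and 26.9 CPM in Tet2 KO 3. Bad also overlaps Gpr137 on the other strand over 20.5% of its exon bases. Bbc3 (gene 170770, chromosome 7, 16308398 to 16318334) encodes PUMA, a p53 target, and was the rarest member.

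Bbc3 varied widely between libraries of 1 group. It had 0 to 99 counts per library, with a median of 30, and no count in Asxl1 KO 1 and Dnmt3a KO 1. A count of 0 there allows up to 0.161 and 0.110 CPM, at 3 counts of the total and for counting error only. Rosa KO libraries had 0.821 to 3.69 CPM and Tet2 KO libraries 1.52 to 3.02 CPM, while Asxl1 KO had 0.00, 0.155, 2.44 and 1.04 CPM and Dnmt3a KO 0.00, 1.46, 0.693 and 1.56 CPM. The ranges overlapped, and the fitted change in Asxl1 KO, −1.56 with a 95% interval of −4.28 to 1.17, did not pass (adjusted p = 0.626). The 3-count limits lay between 0.0737 and 0.453 CPM over the libraries, below the level of every Rosa KO library, and a count of 0 came at 27248878 total counts in Dnmt3a KO 1 while Tet2 KO 3 had 31 counts of 13890261.

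Among the survival genes, Bcl2 (gene 12043, chromosome 1, 106538176 to 106714290) had 386, 268, 302, 320 and 326 CPM in Rosa KO 1 to 5. Tet2 KO 1 to 4 had 214, 394, 137 and 180 CPM. Asxl1 KO 1 to 4 had 422, 383, 281 and 323 CPM and Dnmt3a KO 1 to 4 had 350, 338, 406 and 427 CPM. Tet2 KO held the 3 lowest libraries of all 17, while Tet2 KO 2, the library with the fewest B cell, myeloid and neutrophil transcripts, was at 394 CPM, above every Rosa KO library. Run by run, Bcl2 was 374 ± 37.7 CPM in run 1 (SD, n = 4), 365 ± 85.7 in run 2 (n = 5) and 267 ± 71.1 in run 3 (n = 8). The run 3 mean includes Tet2 KO 3 and 4, at 137 and 180 CPM. With 4 of 5 Rosa KO and 2 of 4 Tet2 KO libraries in run 3, a comparison of these groups also crosses that step. Run alone accounted for 32.2% of the variance of Bcl2 over the libraries and group alone for 48.9%, against medians of 25.6% and 19% over all tested genes.

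Bcl2 fell by 0.80 ± 0.18 on the log2 scale in Tet2 KO (SE, adjusted p = 0.027), a 1.74-fold change, with 3 of 4 libraries below the Rosa KO mean of 320 ± 42.9 CPM. Within run 3, Tet2 KO 3 and 4 (137 and 180 CPM) lay below all 4 Rosa KO libraries (268 to 326 CPM), and the difference of −0.95 passed there (adjusted p = 0.0063). With no run term it was −0.47 and did not pass (0.937). The call held in 5 of 9 fits without 1 library and was lost without Rosa KO 4 (0.0659), Rosa KO 5 (0.0736), Tet2 KO 4 (0.0948) or Tet2 KO 3 (0.306), with fold changes from −0.97 to −0.65. With the B cell covariate it was −0.86 (0.00397), and the B cell level of Tet2 KO 3 and 4 (3192 and 3058 CPM) was close to the 3351 to 3689 CPM of Rosa KO 2 to 5. Of the Bcl2 exon bases, 6.09% overlap the antisense gene D630008O14Rik.

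The other knockouts did not move Bcl2 past the test. The log2 fold change was −0.06 in Asxl1 KO (95% interval −0.40 to 0.28, adjusted p = 0.908) and −0.24 in Dnmt3a KO (−0.65 to 0.17, 0.822), and both turned positive with no run term (0.14 and 0.25). Asxl1 KO was above Tet2 KO by 0.73 ± 0.18 (adjusted p = 0.0583), just outside the threshold, in a comparison where 0 of 10 members and 0.562% of all genes were called and 1 member had an unadjusted p under 0.05. It passed in 9 of 20 alternative fits, among them within run 3 (0.93, adjusted p = 0.000331), with other scalings and by DESeq2 (0.0104). It did not pass with no run term (0.689), with the replicate block beside the run term (0.276) or in its place (0.818), with only the 2 groups (0.377), within run 2 (0.385, adjusted p = 1) or in 6 of 8 fits without 1 library. Dnmt3a KO was above Tet2 KO by 0.56 ± 0.19 (0.607), where 0 members and 0.0937% of genes were called and 2 members had an unadjusted p under 0.05. This difference passed in 1 of 19 alternative fits, the one without Tet2 KO 2 and Asxl1 KO 1 that was chosen after seeing the data (0.92, 0.0272), and in 0 of 8 fits without 1 library. The difference between the Tet2 KO effect on Bcl2 and the Dnmt3a KO effect is this same contrast, and over all libraries it was not past the test.

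**Figure D3:**
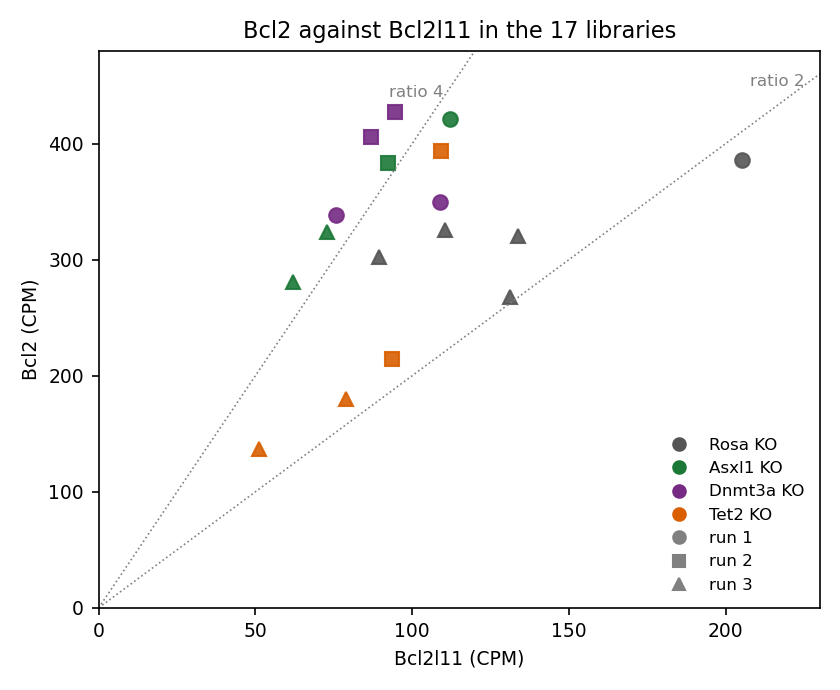
CPM of Bcl2 (y axis) against CPM of Bcl2l11 (x axis), 1 point per library, coloured by group and shaped by run; dotted lines mark Bcl2 to Bcl2l11 ratios of 2 and 4. Rosa KO points lie between ratios of 1.88 and 3.38, and Asxl1 KO points between 3.76 and 4.54.

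Because BCL-2 binds BIM directly, the ratio of Bcl2 to Bcl2l11 CPM within each library was taken as a description, with no test since both genes had entered the comparisons above. It was 1.88 to 3.38 in Rosa KO, with a median of 2.39. Asxl1 KO had 3.76 to 4.54, above every Rosa KO library. Dnmt3a KO had 3.21 to 4.67, overlapping the highest Rosa KO library. Tet2 KO had 2.29 to 3.61, overlapping the Rosa KO range, and both genes were lower there. The ratio of Mcl1 to Bcl2l11 overlapped between Rosa KO (1.74 to 6.19) and each knockout, whose ranges were 4.57 to 8.14, 4.38 to 7.03 and 4.37 to 10.1.

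Mcl1 (gene 17210, chromosome 3, 95656944 to 95663179) encodes the short-lived survival protein on which activated T cells depend. It had 358, 621, 554, 554 and 523 CPM in Rosa KO 1 to 5, and between 414 CPM (Dnmt3a KO 4) and 628 CPM (Asxl1 KO 1) in the 12 knockout libraries. The group means were 522 ± 98.7 CPM in Rosa KO (SD, n = 5), 508 ± 86.5 in Asxl1 KO, 479 ± 52.0 in Dnmt3a KO and 511 ± 41.2 in Tet2 KO (n = 4 each). Rosa KO 1 was the lowest library of all, and each knockout group overlapped Rosa KO over all runs. Within runs the order was opposite: the 3 knockout libraries of run 1 (507.3 to 627.5 CPM) lay above Rosa KO 1, and the 4 of run 3 (479.1 to 517.1 CPM) lay below all 4 Rosa KO libraries there (523 to 621.2 CPM). The log2 fold changes were 0.01 (95% interval −0.32 to 0.33), −0.02 (−0.42 to 0.37) and 0.06 (−0.29 to 0.40), with adjusted p-values of 0.99, 0.987 and 0.941, and their sign turned in several other fits. Group alone accounted for 4.12% of the variance of Mcl1.

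Bcl2l1 (gene 12048, chromosome 2, 152758732 to 152833803) encodes BCL-XL and was scarce, with 6.64 to 19.6 CPM in Rosa KO. Dnmt3a KO had 6.68 to 11.2 CPM, below every library of Asxl1 KO (11.5 to 16.6 CPM) and of Tet2 KO (12.5 to 20.1 CPM), although Rosa KO overlapped all 3 ranges. These were the only 2 pairs of groups that did not overlap for any member, where 4.4% and 5.28% of all tested genes did not overlap either; between Asxl1 KO and Tet2 KO it was 0 members and 3.89% of genes. Neither difference passed the test (adjusted p = 0.621 and 0.952), and 0 of 10 members and 0.353% of all genes were called between Asxl1 KO and Dnmt3a KO, with 0 members at an unadjusted p under 0.05 by edgeR. In Asxl1 KO 1, the library with the highest summed erythroid and platelet transcripts, Bcl2l1 was at 12.5 CPM. In Rosa KO 1, the library with the highest mean log2 CPM of these genes, it was at 16.4 CPM. Erythroid cells are known to depend on BCL-XL, and the part of their transcripts in the Bcl2l1 level was not tested.

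Of the effectors, Bax (gene 12028, chromosome 7, 45461695 to 45466903) had 29.0, 30.9, 21.2, 33.1 and 31.3 CPM in Rosa KO 1 to 5. Tet2 KO 1 to 4 had 22.1, 35.6, 67.0 and 67.1 CPM. Asxl1 KO 1 to 4 had 24.6, 17.4, 54.8 and 54.2 CPM, and Dnmt3a KO 1 to 4 had 25.9, 34.2, 15.04 and 30.1 CPM. The 4 knockout libraries of run 3 were the highest of all 17 and stood above the Rosa KO libraries of that run, which had 21.2 to 33.1 CPM. The knockout libraries of runs 1 and 2 lay around the Rosa KO range. In Tet2 KO the log2 fold change was 1.06 ± 0.30 (SE, unadjusted p = 0.00163 by edgeR, adjusted p = 0.0827), which did not pass. Bax passed in Tet2 KO in 3 of 20 alternative fits, within run 3 (1.20, adjusted p = 0.0405), by DESeq2 (1.03, 0.0305) and without Rosa KO 1 (1.29, 0.0361), and the other adjusted p-values reached 1. The changes of 0.54 ± 0.28 in Asxl1 KO (0.356) and 0.60 ± 0.33 in Dnmt3a KO (0.686) did not pass, and the second turned to −0.145 with no run term. Exons of Bax and of Gm45808, on the same strand, share 12.2% of the Bax exon bases. Bak1 (gene 12018, chromosome 17, 27019812 to 27028627), the other effector, had 53.3 to 119 CPM in Rosa KO and 38.8 to 113 CPM in the knockouts, and run accounted for 48.6% of its variance and group for 2.89%. Its 3 lowest libraries, Asxl1 KO 2 and Dnmt3a KO 3 and 4 at 38.8 to 47.8 CPM, were all of run 2. Exons of Ggnbp1 on the other strand share 7.35% and 18.2% of Bak1 exon bases at 2 annotated copies.

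Bcl2l1, Bak1, Bad, Pmaip1 and Bbc3, which like Mcl1 had no call and no fold change near it, gave 15 fold changes against Rosa KO. On the log2 scale these ran from −1.56 (Bbc3 in Asxl1 KO) to 0.74 (Bad in Tet2 KO), 9 above and 6 below 0. By edgeR the adjusted p-values were 0.545 to 0.991, with none at an unadjusted p under 0.05. Those p-values follow in part from grouping these 5 for having no call.

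**Figure D4:**
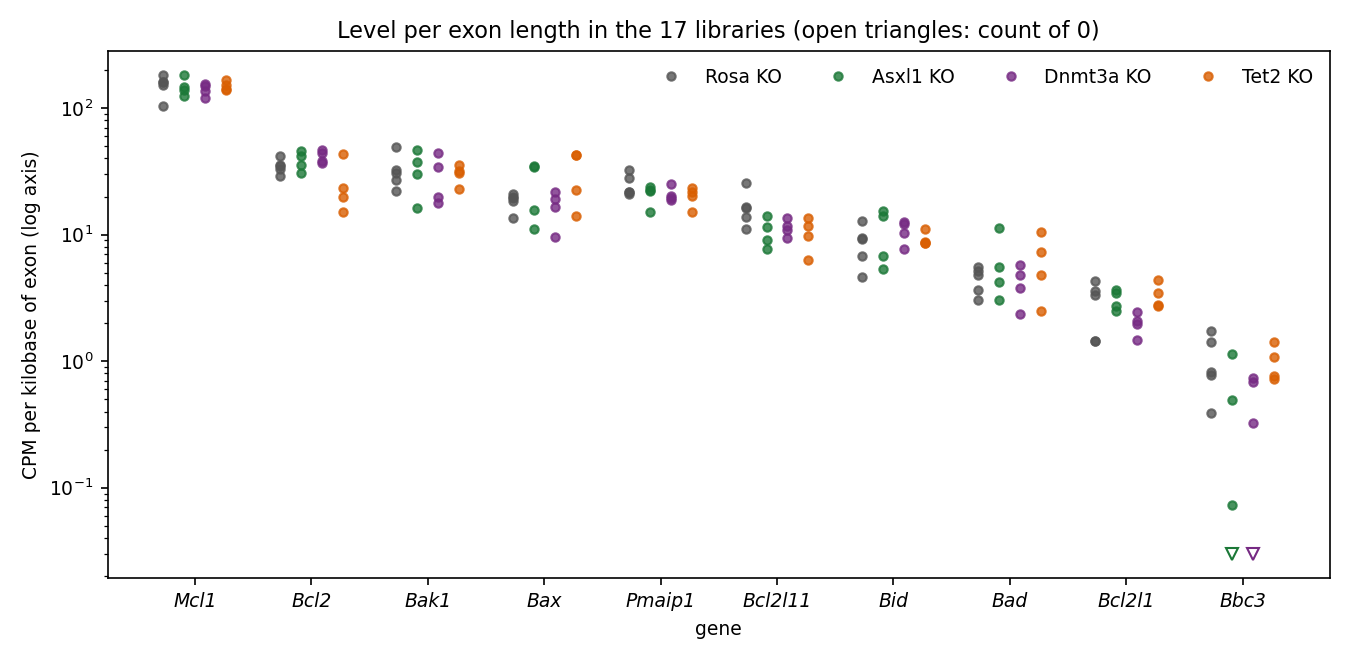
CPM per kilobase of exon (log axis) of each gene in the 17 libraries, coloured by group, with the genes in order of their mean; open triangles at the bottom mark the 2 libraries with no Bbc3 count. Mcl1 is the highest in every library and Bbc3 lies lowest.

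Levels of different genes were compared per kilobase of exon. Over the 17 libraries Mcl1 led with 148 ± 20.5 CPM per kilobase (SD), above every other member in every library. Bcl2 (35.1 ± 9.17) and Bak1 (31.2 ± 9.78) followed, then Bax (22.2 ± 10.2) and Pmaip1 (21.9 ± 4.13), and neighbours in this order did not differ beyond their spread. Bcl2l11 (12.5 ± 4.36), Bid (9.67 ± 3.05), Bad (5.19 ± 2.51), Bcl2l1 (2.81 ± 0.94) and Bbc3 (0.741 ± 0.507) came below them. Bcl2 ranked second in Rosa KO, Asxl1 KO and Dnmt3a KO and rank 4 in Tet2 KO, where it had 25.3 ± 12.3 CPM per kilobase (n = 4) and Bax ranked second with 30.4 ± 14.4. The exon length used is the union of all annotated transcripts, which a cell need not all use.

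By rule, the 3 genes whose pattern was most like a called member were taken from 9519 genes with at least 5 CPM, as the highest Pearson r of log2 CPM over the 17 libraries after removing run means. They are a description across libraries that share runs and depth, with no p. Nearest to Bcl2l11 were Slc20a1, a phosphate transporter (r = 0.896, Spearman rho 0.9, r = 0.882 without Rosa KO 4 and 2), Safb, a nuclear matrix protein (0.877, 0.686 and 0.793) and Fbxw2, an F-box protein (0.875, 0.865 and 0.771). Nearest to Bcl2 were Ubash3b, which encodes the phosphatase STS-1 that restrains T cell receptor signalling (r = 0.893, rho 0.789, r = 0.73 without Tet2 KO 1 and 3), Dgkh, a diacylglycerol kinase (0.892, 0.865 and 0.753) and Wdr81 (0.885, 0.779 and 0.85).

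Other genes of the pathway were examined as whole lists. Of 16 further BCL-2 family genes 12 were tested and 0 were called in any knockout against Rosa KO, with median log2 fold changes of 0.27 in Asxl1 KO, 0.03 in Dnmt3a KO and 0.32 in Tet2 KO; by edgeR 0 of them had an unadjusted p under 0.05. These included the survival genes Bcl2a1b (108 ± 37.5 CPM in Rosa KO, n = 5) and Bcl2a1d (71.1 ± 23.4), close paralogs whose reads may not be separated, the BH3-only gene Bmf and the mitophagy receptor gene Bnip3l (250.7 to 304.5 CPM in Rosa KO). Of 22 apoptosome and caspase genes 0 were called in each of these comparisons, with 4, 3 and 2 at an unadjusted p under 0.05 by edgeR. Of 19 tested p53 pathway genes only Mdm4, an inhibitor of p53, was called. It fell by 0.60 ± 0.14 in Asxl1 KO (adjusted p = 0.024) and by 0.59 ± 0.15 in Tet2 KO (0.0372). For Mdm4 in Tet2 KO the unadjusted group means were 458 ± 141 and 456 ± 152 CPM, and with no run term the difference was 0.0062 (adjusted p = 1); within run 3 neither call passed (0.0635 and 0.071). In Dnmt3a KO 0 of 19 passed, and 0 had an unadjusted p under 0.05 by edgeR.

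The 13 tested genes listed for MCL-1 and BIM turnover included the transcription factor genes Foxo1 and Foxo3, which were not called. Among the 13, Fbxw7, the ubiquitin ligase adaptor that marks MCL-1 for destruction, fell in 2 knockouts. Rosa KO libraries had 121 to 150 CPM of Fbxw7, above all 4 Asxl1 KO libraries (62.0 to 94.3 CPM), all 4 Tet2 KO libraries (69.1 to 110 CPM) and all 4 Dnmt3a KO libraries (79.8 to 115 CPM). The log2 change was −0.96 ± 0.18 in Asxl1 KO (adjusted p = 0.00432) and −0.80 ± 0.19 in Tet2 KO (0.0305), while −0.75 ± 0.21 in Dnmt3a KO did not pass (0.196). It passed in all 9 fits without 1 library for Asxl1 KO and in 2 of 9 for Tet2 KO (up to 0.263, without Tet2 KO 3), and within run 3 in both (0.00275 and 0.0269). With no run term neither passed (0.117 and 0.6). Dynll1, a dynein light chain that can hold BIM at microtubules, rose by 0.73 ± 0.19 in Tet2 KO (0.0482). Its levels there were 88.5, 81.9, 190 and 197 CPM, so that only the run 3 libraries stood above the 89.7 to 151 CPM of Rosa KO, and it passed in 1 of 9 fits without 1 library and not with no run term (1). Dnmt3a KO had 0 calls among the 13, and 2 genes lower at an unadjusted p under 0.05 by edgeR.

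Of 14 survival cytokine receptor genes and their regulators, Il7r rose in Tet2 KO. It encodes the IL-7 receptor alpha chain, a marker of memory precursors. Tet2 KO 1 to 4 had 370, 498, 117 and 128 CPM, all above the 5 Rosa KO libraries, which had 13.9 to 64.6 CPM. Dnmt3a KO libraries, at 85.8 to 140.5 CPM, also all lay above Rosa KO, and Asxl1 KO libraries, at 46.9 to 160.5 CPM, overlapped it. The log2 fold change of Il7r was 2.23 ± 0.40 in Tet2 KO (adjusted p = 0.0108), and 1.98 within run 3 (0.0269). It did not pass in Dnmt3a KO (0.55 ± 0.46, 0.826) or Asxl1 KO (0.93 ± 0.38, 0.242). It lost the call without Tet2 KO 3 (0.0647), without Tet2 KO 4 (0.0641) or with only these 2 groups (0.255). Tet2 KO 1, 3 and 4 lay above every Rosa KO library for Il7r and below every one for Bcl2, whereas Tet2 KO 2 had the highest Il7r and the highest Bcl2 of its group. Between Asxl1 KO and Tet2 KO, Il2rb, the receptor chain shared by IL-2 and IL-15, was higher in Asxl1 KO by 0.81 ± 0.16 (0.0132), with 679 to 1506 CPM against 518 to 532 CPM. Cish, a feedback inhibitor of cytokine and T cell receptor signalling, was higher by 1.24 ± 0.27 (0.0282), with 66.2 to 85.2 CPM against 24.3 to 34.1 CPM. Neither passed with no run term (0.155 and 0.0613), and Cish passed in 1 of 8 fits without 1 library. Cish overlaps Gm17041 and Gm17040 on the other strand. No gene of this list passed in Asxl1 KO or Dnmt3a KO against Rosa KO, where 5 and 2 had an unadjusted p under 0.05 by edgeR.

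Of 22 immediate early genes, which respond to antigen and to the handling of cells, Ier3 rose in Asxl1 KO (2.49 ± 0.45, adjusted p = 0.00335) and Klf6 (−1.29 ± 0.26, 0.0112) and Ier5 (−0.96 ± 0.22, 0.0263) fell. Nr4a2 fell in Tet2 KO (−1.15 ± 0.25, 0.0201). Without 1 library in turn, Ier3 passed in 9 of 9 fits, Klf6 in 7 (not without Asxl1 KO 3, 0.0909, or 4, 0.0696), Nr4a2 in 6 (not without Rosa KO 4, 0.0565, or Tet2 KO 3, 0.263, or 4, 0.13) and Ier5 in 4. Ier5 also failed without Rosa KO 1, 3 or 5 or Asxl1 KO 1 or 3 (0.06 to 0.119), with no run term (0.249), within run 3 (0.0594) and with the B cell covariate (0.0572). The list's median log2 fold change was −0.76 in Asxl1 KO, −0.57 in Dnmt3a KO and −0.52 in Tet2 KO, and 11, 5 and 5 genes had an unadjusted p under 0.05 by edgeR. The part of these genes in the Bcl2l11 difference was not tested. None of the 6 pathway lists had a call between Asxl1 KO and Dnmt3a KO or between Dnmt3a KO and Tet2 KO by edgeR.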

How the data were processed

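RNA from 17 spleen CD8 T cell libraries was read as the deposited raw counts per gene, 1 table per library. Per the labels' protocols RNA was isolated with Direct-zol and made into libraries with TruSeq Stranded Total RNA, although the labels' molecule field reads genomic DNA. Among builds and tools, mm10, STAR 2.5.3a and DESeq2 1.26.0 are listed in the submitters' processing notes, and the sources used here do not give the counting tool, annotation or strand setting. Of the 24594 entries listed, 3 had no symbol and were not removed for that. Genes were filtered (filterByExpr, minimum count 10, total 15) and TMM scaling was applied. The robust quasi-likelihood test of edgeR 4.0.16 (R 4.3.3, limma 3.58.1) was fitted on group and run over all libraries. Benjamini-Hochberg adjustment was over 13881 genes, with a threshold of 0.05. Residual degrees of freedom were 11 and the common biological coefficient of variation was 0.604. Intervals are 95%. Log2 CPM used a prior count of 2. Runs were set where library numbers jump by more than 10. The genes named are the members, the list genes called and the 3 nearest patterns. The members and lists were chosen with earlier results of these data known. Same-group libraries differed beyond sampling noise in all 28 pairs (chi-square per degree of freedom 20.6 to 272). The fit was tested on simulated data for Asxl1 KO against Rosa KO only. Those data were drawn without run differences, so that check does not bear on the run term. Alternatives were other scalings, no filter, DESeq2 1.42.0, no run term, replicate blocks, single runs, a B cell covariate and leaving out libraries.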

Additional observations from a re-analysis of the deposited data

Results flagged for a closer look

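Bid in Tet2 KO 3 was at 39.43 CPM, while the other 3 Tet2 KO libraries lay between 30.53 and 31.12 CPM. The gap to the nearest library was 0.934 of the group's range, beyond Dixon's 95% critical value for 4 samples. It was the only such value among 40 groups of a gene and a genotype, and chance alone gives about 1 in 20.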

How the results depend on the processing

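The counts of members called against Rosa KO (1 in Asxl1 KO, 1 in Dnmt3a KO and 2 in Tet2 KO) were 0, 0 and 0 with no run term, with the replicate block beside the run term and with the replicate block in place of it, and 0, 0 and 1 with only the 2 groups compared. They were 0 in Dnmt3a KO within run 1 and with the B cell covariate, and 0 in Asxl1 KO within run 3. The cause was not tested. Fits to 1 run or 2 groups hold fewer libraries. The fits with no run term, with a replicate block or with the B cell covariate left out no library. Between Asxl1 KO and Tet2 KO the count was 1 (Bcl2) with RLE size factors, upper-quartile scaling, no filter, DESeq2, the B cell covariate, within run 3 and without Tet2 KO 2 and Asxl1 KO 1, where it was also 1 between Dnmt3a KO and Tet2 KO. Leaving out 1 library gave 0 to 1, 0 to 1 and 0 to 2 members against Rosa KO, 0 to 1 between Asxl1 KO and Tet2 KO and 0 to 0 in the other pairs. Bcl2l11 against Rosa KO and Bcl2 in Tet2 KO kept their sign in every fit run.

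Over all genes, 227 were called in Asxl1 KO (12 to 658 over the alternatives), 30 in Dnmt3a KO (0 to 150) and 204 in Tet2 KO (23 to 423) against Rosa KO. There were 49 calls between Asxl1 KO and Dnmt3a KO (2 to 1035), 78 between Asxl1 KO and Tet2 KO (0 to 618) and 13 between Dnmt3a KO and Tet2 KO (1 to 73).

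Whether replicate numbers pair the libraries was not settled. Of 24 same-numbered pairs, 10 of them in the same run, 2 had r over 0.1 (−0.206 to 0.163). A library correlated best with its own number in 6, 1, 5, 2, 2 and 0 of 8 cases over the 6 comparisons. Run differences were left in these correlations, so they cannot tell pairing from a shared run. With the replicate block and run, Bcl2l11 was at −0.831, −0.941 and −0.882 and Bcl2 in Tet2 KO at −0.766.

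Among the fold changes given singly in the report, these turned sign. Members given only by their range turned too, such as Bad in Asxl1 KO (−0.854 to 1.01), Bbc3 in Dnmt3a KO (−2.44 to 1.19) and Bak1 in Asxl1 KO (−0.189 to 1.08), none of which passed in any fit run. With no run term and with the block in its place, Bcl2 was at 0.137 and 0.122 in Asxl1 KO and 0.247 and 0.266 in Dnmt3a KO, Mcl1 at −0.0386 and −0.0419 in Asxl1 KO and −0.0311 and −0.0341 in Tet2 KO, Bax at −0.145 and −0.107 in Dnmt3a KO and Mdm4 at 0.00621 and 0.321 in Tet2 KO. Bcl2l11 was then at −0.111 and −0.157 between Asxl1 KO and Dnmt3a KO and at 0.139 and 0.187 between Dnmt3a KO and Tet2 KO. Bcl2 in Asxl1 KO was also at 0.0192 with only 2 groups and 0.129 in run 1. Mcl1 in Asxl1 KO was at −0.0121 with RLE and DESeq2, −0.00743 with upper-quartile scaling, −0.138 without Tet2 KO 2 and Asxl1 KO 1 and −0.206 in run 3. Mcl1 in Dnmt3a KO was at 0.249 with block and run, 0.0192 with upper-quartile scaling, 0.0799 without those 2 libraries, 0.544 with 2 groups and 0.542 in run 1, and in Tet2 KO at −0.18 with 2 groups and −0.177 in run 3. In run 1 of Asxl1 KO, Bax was at −0.237 and Klf6 at 0.014. Bcl2l11 between Asxl1 KO and Tet2 KO was at −0.034 with the B cell covariate, −0.0256 with 2 groups and −0.088 in run 2. Leaving out 1 library gave Mcl1 ranges of −0.249 to 0.0701, −0.392 to 0.0294 and −0.142 to 0.14, Bcl2 in Asxl1 KO −0.147 to 0.011 and Bcl2l11 between Asxl1 KO and Tet2 KO −0.119 to 0.159. Bbc3 had the fewest counts of the members, 0 to 99 per library. Dnmt3a KO 1 and 2, both of run 1, had 0 and 30 counts, and the source of this spread was not tested.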
